A study of Mus musculus with 2 samples.

Results

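The collagen genes outside the cartilage types numbered 34 on the mouse autosomes, of 20722 autosomal protein-coding genes with an annotated coding transcript. They were all autosomal collagens other than types II, IX, X, XI and XXVII and were taken by gene name. The rule itself uses no measured value, although the set was proposed with earlier results of these data known. Chromatin was profiled by ATAC-seq, in which the Tn5 transposase cuts accessible DNA, in cells labelled chondrocytes from the proximal and the distal femoral growth plates of mouse embryos at E15.5 (strain FVBNJ in the sample labels, FVB in the methods). The 2 groups had the same strain and age, received no treatment and differed in the femur end alone. The dissected tissue was cartilage with its perichondrium, the fibrous sheath around it, and without the bone shaft. A sample was a collagenase digest of tissue from 1 litter (mean 8 animals), and each end had 2 biological replicates of 50000 cells. The deposited file of an end is 1 list of peaks reproducible between its replicates, with positions and no peak heights, so each count below is 1 value per end with no replicate error and no test between the ends.

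Collagens are triple-helical matrix proteins built from alpha chains. Fibrillar collagens form the cable-like fibrils of bone, skin and tendon, and FACIT collagens (fibril-associated collagens with interrupted triple helices) lie on the fibril surface. Type IV chains form the sheet of basement membranes, whereas types VII and XVII anchor epithelia to the tissue beneath. Type VI forms beaded filaments around cells, including chondrocytes, type VIII forms hexagonal networks, and the multiplexins XV and XVIII sit at basement membrane zones. The growth plate's own fibrils are mainly made of types II, IX and XI, which were used here only for comparison.

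The proximal list held 28257 peaks and the distal list 27958, which merged into 32388 regions where peaks overlapped by at least 1 bp. Of these regions, 23635 held a peak of both ends (shared), 4559 were proximal-only and 4194 distal-only, so 27.0% were found at a single end. A promoter peak was one within 1 kb of a coding transcript's start in the GENCODE mouse release 21 annotation of GRCm38 (mm10). The chondrocyte label was compared with marker genes: 8 of 12 chondrocyte markers had a promoter peak in both lists, as did 54.1% of all autosomal protein-coding genes. Sox9, Acan and Col2a1 were among the 8, whereas Sox5 had a promoter peak in the proximal list alone, Comp in the distal list alone, and Matn1 and Snorc in neither. Of the other lists, a promoter peak in both was found for 0 of 7 autosomal osteoblast markers, 1 of 6 fibroblast and tendon markers, 2 of 7 endothelial, 2 of 8 epithelial, 1 of 6 muscle and 1 of 5 blood markers. One femur end alone had a promoter peak for 1 osteoblast, 2 fibroblast and tendon, 1 endothelial and 1 epithelial marker. An open promoter is not a measure of transcript level, and no RNA was measured in these files.

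A peak lay at the promoter of 18 members (52.9%) in the proximal list and of 21 (61.8%) in the distal list, against 55.4% and 56.8% of all autosomal protein-coding genes. Both lists had a promoter peak for 17 of the 34 members, against 54.1% of all genes, so the collagens as a set stood close to the background. No promoter peak in either list was found for 12 members and for 8669 of all 20722 genes. A further 5 members (14.7%) had one in a single list, against 4.10% of all genes. The 5 were Col5a2 in the proximal list and Col14a1, Col22a1, Col8a2 and Col18a1 in the distal list. The single-list count moved with the distance allowed. Within 200 bp of a start, 17 members had a promoter peak in the proximal list, 18 in the distal list and 16 in both. That leaves 3 in a single list. At that limit 52.4% of all genes had one in both lists, and the single-list share of all genes was not computed. The 12 without a promoter peak were Col1a1, Col5a3, Col24a1, Col20a1, Col7a1, Col17a1, Col6a4, Col6a5, Col6a6, Col13a1, Col26a1 and Col28a1.

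**Figure D1:**
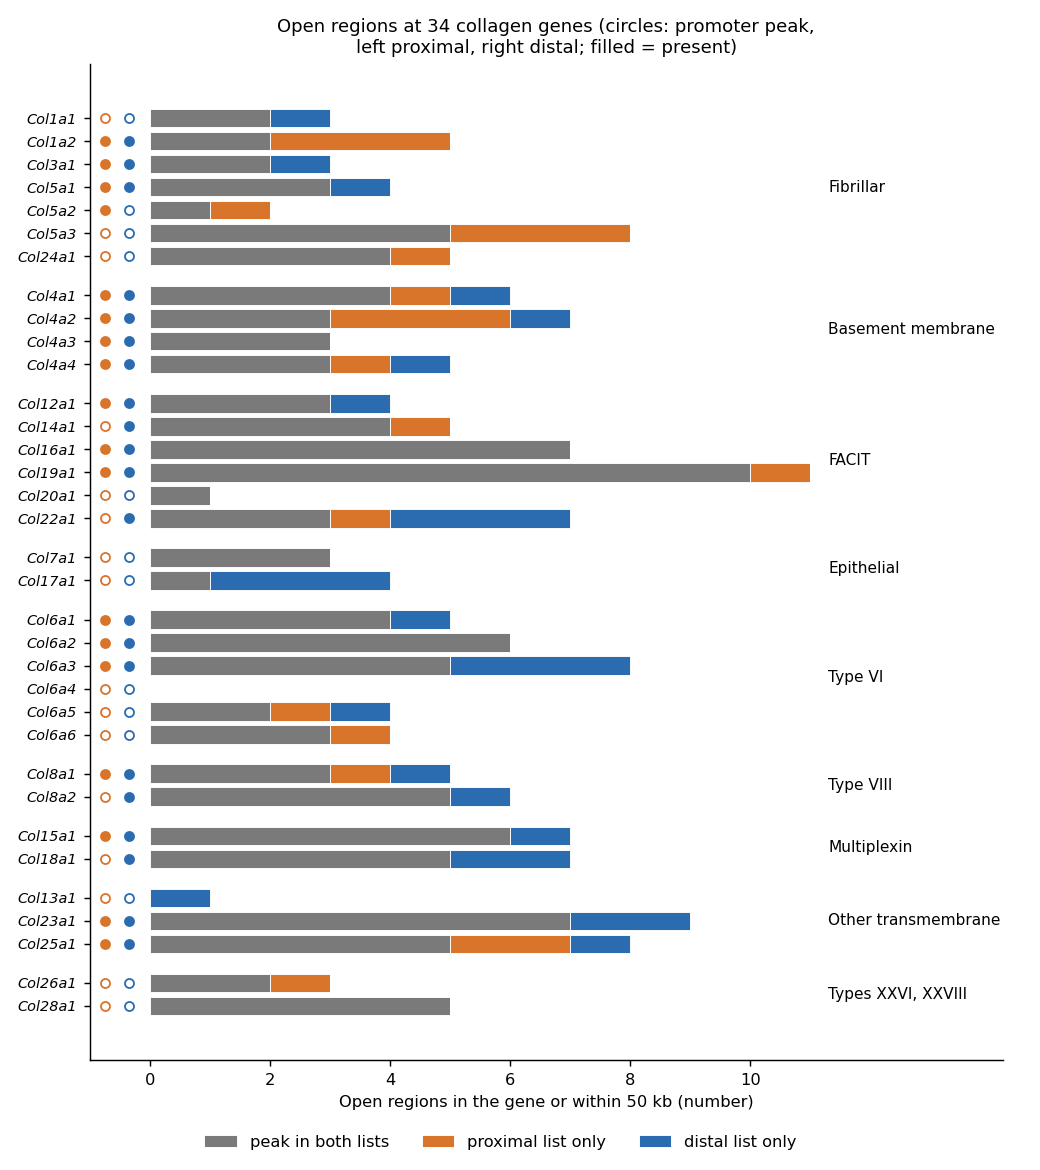
Number of open regions in each of the 34 collagen genes or within 50 kb of it (x axis), coloured by whether the region held a peak of both lists or of 1, with circles at the left for a promoter peak in the proximal (orange) and distal (blue) list. Basement membrane chains have 4 of 4 promoters filled in both lists and epithelial collagens 0 of 2, while Col19a1 has the most regions with 11 and Col6a4 has 0.

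Promoter sequences are shown for 4 members open at both ends and for both epithelial collagens, which had no promoter peak, so that the named classes can be compared. RefSeq windows (GRCm38.p6, from 250 bases before to 50 after the start, 5′ to 3′ on the gene's strand) matched 27 of the 34 members, and Col1a1, Col5a2, Col4a3, Col12a1, Col14a1, Col22a1 and Col26a1 had none. Capitals mark matches, on either strand, to 8 short motifs. They are the CCAAT box bound by NF-Y, the Sp1 box with the letters GGGCGG, and the TATA box, searched as TATAAA. Motifs of factor families known from cartilage and mesenchyme were also searched, namely the RUNX core as TGTGGT and the Sox core as ACAAAG. For the TEAD factors of the Hippo pathway the letters were GGAATG, for AP-1 they were TGAGTCA, and for the ETS family they were CCGGAA. Col1a2, Col3a1, Col4a2 and Col6a3 had a peak of both ends over the window, and Col7a1 and Col17a1 had no promoter peak.
Col1a2 (chr6:4505368-4505667, + strand): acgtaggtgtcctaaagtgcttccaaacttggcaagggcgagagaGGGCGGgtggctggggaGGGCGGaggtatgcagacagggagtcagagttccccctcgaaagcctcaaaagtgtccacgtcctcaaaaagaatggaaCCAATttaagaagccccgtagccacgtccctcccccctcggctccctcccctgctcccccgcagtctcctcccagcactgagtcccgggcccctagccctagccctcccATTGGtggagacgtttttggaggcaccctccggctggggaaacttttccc
Col3a1 (chr1:45311288-45311587, + strand): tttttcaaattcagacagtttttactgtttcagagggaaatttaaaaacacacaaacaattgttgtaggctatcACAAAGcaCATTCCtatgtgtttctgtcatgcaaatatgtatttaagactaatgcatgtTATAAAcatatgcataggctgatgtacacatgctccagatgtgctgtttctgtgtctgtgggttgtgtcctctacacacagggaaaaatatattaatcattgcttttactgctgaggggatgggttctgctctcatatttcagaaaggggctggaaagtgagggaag
Col4a2 (chr8:11312555-11312854, + strand): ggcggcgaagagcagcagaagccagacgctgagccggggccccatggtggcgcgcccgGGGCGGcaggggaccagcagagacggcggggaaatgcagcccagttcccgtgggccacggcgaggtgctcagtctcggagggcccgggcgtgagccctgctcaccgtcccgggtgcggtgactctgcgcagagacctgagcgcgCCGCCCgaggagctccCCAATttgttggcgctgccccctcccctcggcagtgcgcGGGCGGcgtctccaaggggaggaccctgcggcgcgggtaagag
Col6a3 (chr1:90843922-90844221, - strand): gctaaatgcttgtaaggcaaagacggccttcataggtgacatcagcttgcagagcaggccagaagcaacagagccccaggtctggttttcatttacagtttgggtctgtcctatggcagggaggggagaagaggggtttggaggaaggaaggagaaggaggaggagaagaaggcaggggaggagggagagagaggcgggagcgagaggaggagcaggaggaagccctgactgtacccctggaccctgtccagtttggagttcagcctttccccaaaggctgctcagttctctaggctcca
Col7a1 (chr9:108953336-108953635, + strand): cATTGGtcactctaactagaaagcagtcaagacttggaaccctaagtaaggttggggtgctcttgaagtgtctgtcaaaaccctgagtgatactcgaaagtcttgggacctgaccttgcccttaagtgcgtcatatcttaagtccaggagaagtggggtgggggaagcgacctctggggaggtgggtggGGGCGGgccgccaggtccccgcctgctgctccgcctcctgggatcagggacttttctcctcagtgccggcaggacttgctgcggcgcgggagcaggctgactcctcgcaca
Col17a1 (chr19:47691993-47692292, - strand): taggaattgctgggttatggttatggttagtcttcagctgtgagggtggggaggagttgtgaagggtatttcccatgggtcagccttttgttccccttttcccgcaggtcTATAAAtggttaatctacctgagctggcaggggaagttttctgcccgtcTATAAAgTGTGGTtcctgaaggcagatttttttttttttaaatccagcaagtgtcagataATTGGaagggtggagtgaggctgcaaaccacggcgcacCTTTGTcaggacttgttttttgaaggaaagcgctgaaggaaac

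These windows differed in CpG content, the measure that separates CpG-island promoters from the rest. The ratio of observed to expected CpG was 0.82 in Col4a2 and 0.47 in both Col1a2 and Col7a1, 0.34 in Col17a1, 0.14 in Col6a3, and 0.00 in Col3a1, whose 300 bases contain 0 CpG. Over all genes with a window, the median ratio was 0.78 for promoters with a peak in both lists and 0.21 for those with none. The members lay closer together, with medians of 0.54 (15 windows) and 0.36 (10 windows). Below a ratio of 0.6, 9 of 18 members had a promoter peak in both lists, against 27.3% of all 7607 such genes. At or above 0.6, 6 of 9 members (66.7%) did, against 85.1% of 7930 genes. The 4 CpG-poorest open promoters were Col3a1 (0.00), Col6a1 (0.13), Col6a3 (0.14) and Col6a2 (0.25), whereas Col13a1 (0.84) and Col5a3 (0.66) had CpG-rich windows and no promoter peak. Col4a1 and Col4a2, both among the 6, have overlapping windows and share 1 promoter region, so they are not separate cases. These shares rest on 27 windows and were not tested.

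**Figure D2:**
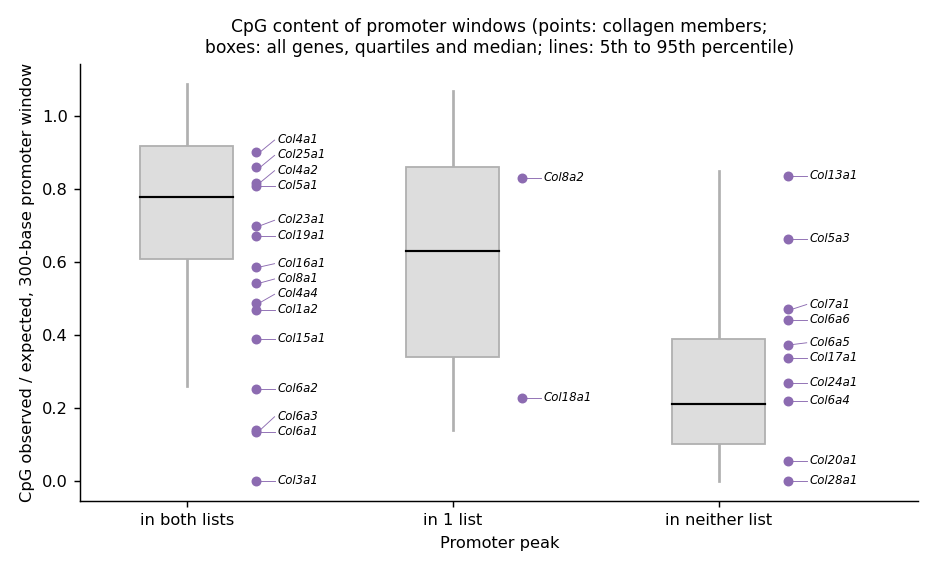
CpG observed over expected in the 300-base RefSeq promoter window (y axis) of the 27 collagen members with a window (points) and of all genes (boxes for quartiles and median, lines from the 5th to the 95th percentile), split by promoter peak in both lists, in 1 list or in neither. Members with a peak in both lists reach down to 0.00 (Col3a1), below the 5th percentile of 0.26 for all such genes, and members without a peak reach up to 0.84 (Col13a1). For Col8a2 and Col18a1 the window is at another start than the one with the peak.

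Matches to short motifs in the 27 promoter windows were mostly near the share in all 15537 windows. GGGCGG, the Sp1 box, was present in 15 (55.6%, against 48.8%), and CCAAT, the NF-Y box, in 9 (33.3%, against 38.1%). TATAAA was present in Col3a1, Col13a1 and Col17a1 (11.1%, against 12.9%). The ETS core CCGGAA was in 0 of 27 windows, against 20.1% of all windows. RUNX, Sox and TEAD letters were found in 3, 4 and 3 windows, against 14.8%, 16.5% and 13.2% of all windows, and the AP-1 letters in Col6a1 alone (3.70%, against 4.56%). A match is a description of the letters, and binding was not measured.

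Fibrillar collagens had a promoter peak in both lists at 3 of 7 genes, namely Col1a2, Col3a1 and Col5a1. The pair of chains that form type I collagen differed. Col1a2, the alpha-2 chain, had a shared peak over its start, 848 bp wide in the proximal list and 822 bp in the distal list, and a second region of 335 bp in the proximal list alone that lay 717 bp into the gene from the nearest coding start. Col1a1, the alpha-1 chain, had no region in its gene (chr11:94936224-94953042), and the nearest peak to its start was 6922 bp away in the proximal list and 6907 bp in the distal list, in a shared region upstream. Type I collagen is known from bone and fibrous tissue rather than cartilage. Of the markers of those cells, 0 of 7 osteoblast genes and 1 of 6 fibroblast and tendon genes had a promoter peak in both lists. The osteoblast marker Spp1 and the tendon marker Mkx had one in the proximal list alone, and Pdgfra in the distal list alone. The dissected tissue includes the fibrous perichondrium. The part of osteoblasts or fibroblasts in the type I and type III peaks was not tested.

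Col3a1, whose homotrimer accompanies type I in soft tissue, had a peak of 560 bp in the proximal list and 491 bp in the distal list over its start. A second shared region lay in its intron 1, with its midpoint 2494 bp from the start. Type V collagen sets fibril diameter, and its chains split 3 ways. Col5a1 had a shared promoter region of 1176 bp and a shared region in intron 4, 48067 bp in. Col5a2 had a proximal peak of 594 bp over its start, and the nearest distal peak to that start was 70985 bp away, in an intron 6 region that both lists held. Col5a3 had no promoter peak, although a shared region 1092 bp wide began 1793 bp inside the gene, in intron 1. Within 50 kb Col5a3 had 8 regions, of which 5 were shared and 3 proximal-only, in intron 27 and upstream within the neighbouring gene Rdh8, with their nearest edges 7588 bp and 10511 bp from Col5a3. Col24a1, a fibrillar chain of developing bone, had 2 shared intronic regions, 99758 bp and 178885 bp in, and no promoter peak.

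All 4 basement membrane genes had a promoter peak in both lists, but these were 2 regions and not 4. Col4a1 and Col4a2 are transcribed in opposite directions from coding starts 21 bp apart and shared a region of 1259 bp (964 bp in the proximal list, 1185 bp in the distal list). Col4a3 and Col4a4, the chains known from the kidney filter, have coding starts 127 bp apart and shared a region of 939 bp (939 bp proximal, 855 bp distal). The bodies of the 4 genes held 9 regions, or 1.72 per 100 kb. Col4a2 held 4 of them, of which 2 were proximal-only, 1 distal-only and 1 shared. Col4a4 had a shared region in intron 37 and a distal-only region in intron 35, and Col4a3 a shared region in intron 1.

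FACIT collagens had a promoter peak in both lists at 3 of 6 genes, Col12a1, Col16a1 and Col19a1. Col16a1 was the only member with 2 shared promoter regions, at its 5′ end and at an internal coding start, the latter with its midpoint 8268 bp into the gene, and all 7 of its regions were shared. Col19a1 had the most regions of any member with 11, of which 10 were shared. Of these, 3 lay downstream within Col9a1, a cartilage collagen gene, and a further region of 4579 bp upstream overlapped 7 pseudogenes, as described in the closing observations. Col14a1 is counted in the distal list because of the 1 kb limit: its region was shared, with the edge of the proximal peak 1067 bp and that of the distal peak 857 bp from the start. For Col22a1, a collagen of tissue junctions, the peak of 461 bp over the start was in the distal list alone, and the nearest proximal peak to any of its 3 coding starts was 5312 bp away, at an intronic region of both lists. Col20a1 had 1 region within 50 kb, shared and at the start of Arfgap1, and none in the gene.

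Neither epithelial collagen had a promoter peak. Col7a1, which forms anchoring fibrils, had no region in the gene, and its 3 flanking regions were shared, 2 of them at the starts of Uqcrc1 and Pfkfb4. Col17a1, a hemidesmosome protein, differed between the lists. The distal list had peaks in its intron 7 (497 bp wide) and intron 32 (708 bp wide) and upstream (510 bp wide, 18146 bp from the gene), while the proximal list had a single peak within 50 kb, at the start of the neighbouring gene Sfr1, in a region the distal list held too. The nearest proximal peak to the Col17a1 start was 38482 bp away, against 13055 bp for the distal list. Of the 8 epithelial markers, Epcam and Esrp1 had a promoter peak in both lists and Krt8 had one in the distal list alone. Krt5, Krt14, Cdh1, Trp63 and Itgb4 had none in either list. Within 50 kb Krt8 had 2 distal-only regions, Trp63 had 2 proximal-only regions, and Cdh1 and Epcam had 1 proximal-only region each. The other markers had no single-end region there. The part of epithelial cells in the Col17a1 regions was not tested.

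Type VI collagen split by chain. Col6a1, Col6a2 and Col6a3, which form the widespread heterotrimer of the matrix around cells, each had a promoter peak in both lists, with widths of 597, 874 and 515 bp in the proximal list and 602, 774 and 510 bp in the distal list. Col6a4, Col6a5 and Col6a6, the later-described chains in a cluster on chromosome 9, had none in either list. Col6a2 had 5 upstream regions besides its promoter, all shared. Col6a3 had 8 regions, and its 3 single-end regions were all distal-only. Col6a4 was the only member with 0 regions within 50 kb, and the nearest peaks to its start were 62969 bp (proximal) and 62974 bp (distal) away.

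The remaining members were mixed. Col8a1, a chain of endothelial and corneal matrix, had a shared region 437 bp (proximal) and 475 bp (distal) before its start. Col8a2 had a distal-only region of 1074 bp, 348 bp from a second annotated coding start and with its midpoint 14622 bp into the gene, not at its 5′ end. Col15a1 had a shared promoter region of 1179 bp, whereas Col18a1, the source of endostatin, had a promoter peak in the distal list alone (684 bp), the nearest proximal peak lying 23864 bp from a coding start. Of the transmembrane chains, Col23a1 and Col25a1 had shared promoter regions of 915 and 1314 bp, the latter at a coding start inside the annotated gene. Col13a1 had no promoter peak and 1 region, distal-only, in intron 1. Col28a1 had no promoter peak and 4 shared intronic regions, and Col26a1 had 1 proximal-only intronic region.

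**Figure D3:**
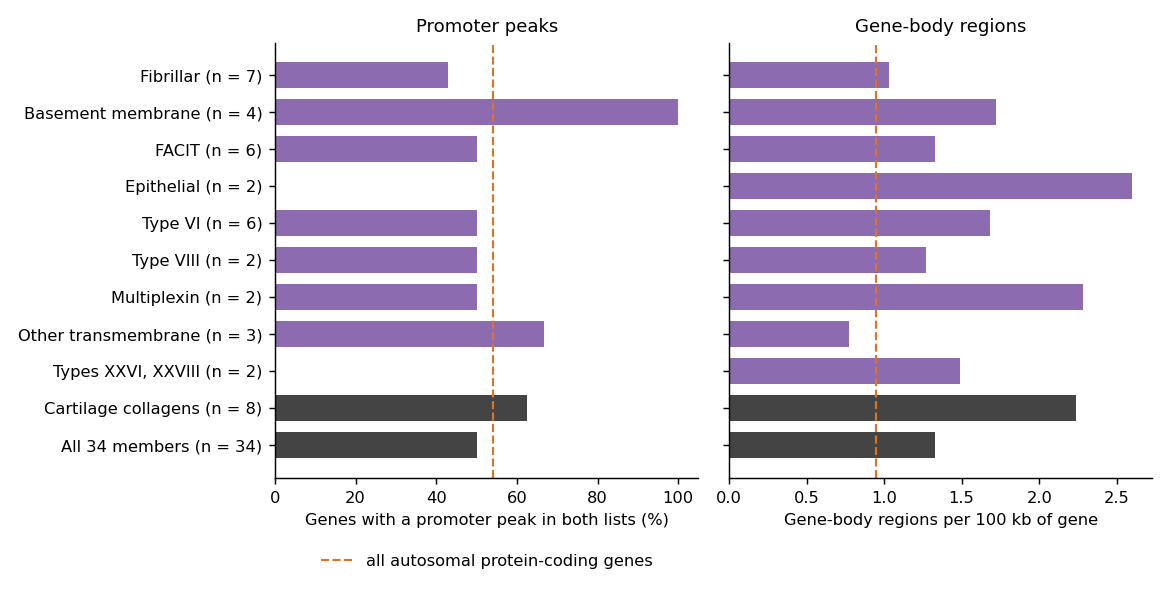
Left, percent of genes of each collagen class with a promoter peak in both lists; right, open regions in gene bodies away from promoters per 100 kb of gene. The dashed line is the value over all autosomal protein-coding genes (54.1% and 0.951); basement membrane genes reach 100% and epithelial genes 0% at promoters, on 4 and 2 genes.

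Away from promoters, 25 of 34 members (73.5%) had at least 1 region in the gene body, against 21.5% of all genes. Collagen genes are long, with a median of 117 kb against 17.6 kb over all genes, and among genes of 100 kb or more the shares were 20 of 22 members (90.9%) and 76.9% of all genes. Per 100 kb of gene the members had 1.33 body regions and all genes 0.951, and for genes of 100 kb or more the values were 1.23 and 1.02. The 12 members under 100 kb had 2.23, and the class median lengths ran from 38.5 kb (epithelial) to 294 kb (other transmembrane). By class the density was 1.03 in fibrillar, 1.72 in basement membrane, 1.33 in FACIT, 1.68 in type VI, 1.27 in type VIII, 2.28 in multiplexin, 0.775 in other transmembrane and 1.49 in type XXVI and XXVIII genes. The value of 2.60 in epithelial genes came from 2 regions in Col17a1. That of type VIII came from 2 regions in Col8a1, and that of multiplexins from 5 regions in 2 genes. Intron 1 held 9 of the 56 intronic regions (16.1%) and 14.1% of the intron length of members, and over all genes 27.0% of regions and 25.1% of the length. The cartilage collagens, with a median length of 28.2 kb, had 2.24 body regions per 100 kb over 8 genes. This is near the 2.23 of members under 100 kb. Of these 8 genes, 5 had a promoter peak in both lists, 2 (Col9a2 and Col11a2) in the distal list alone and 1 (Col10a1) in neither.

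**Figure D4:**
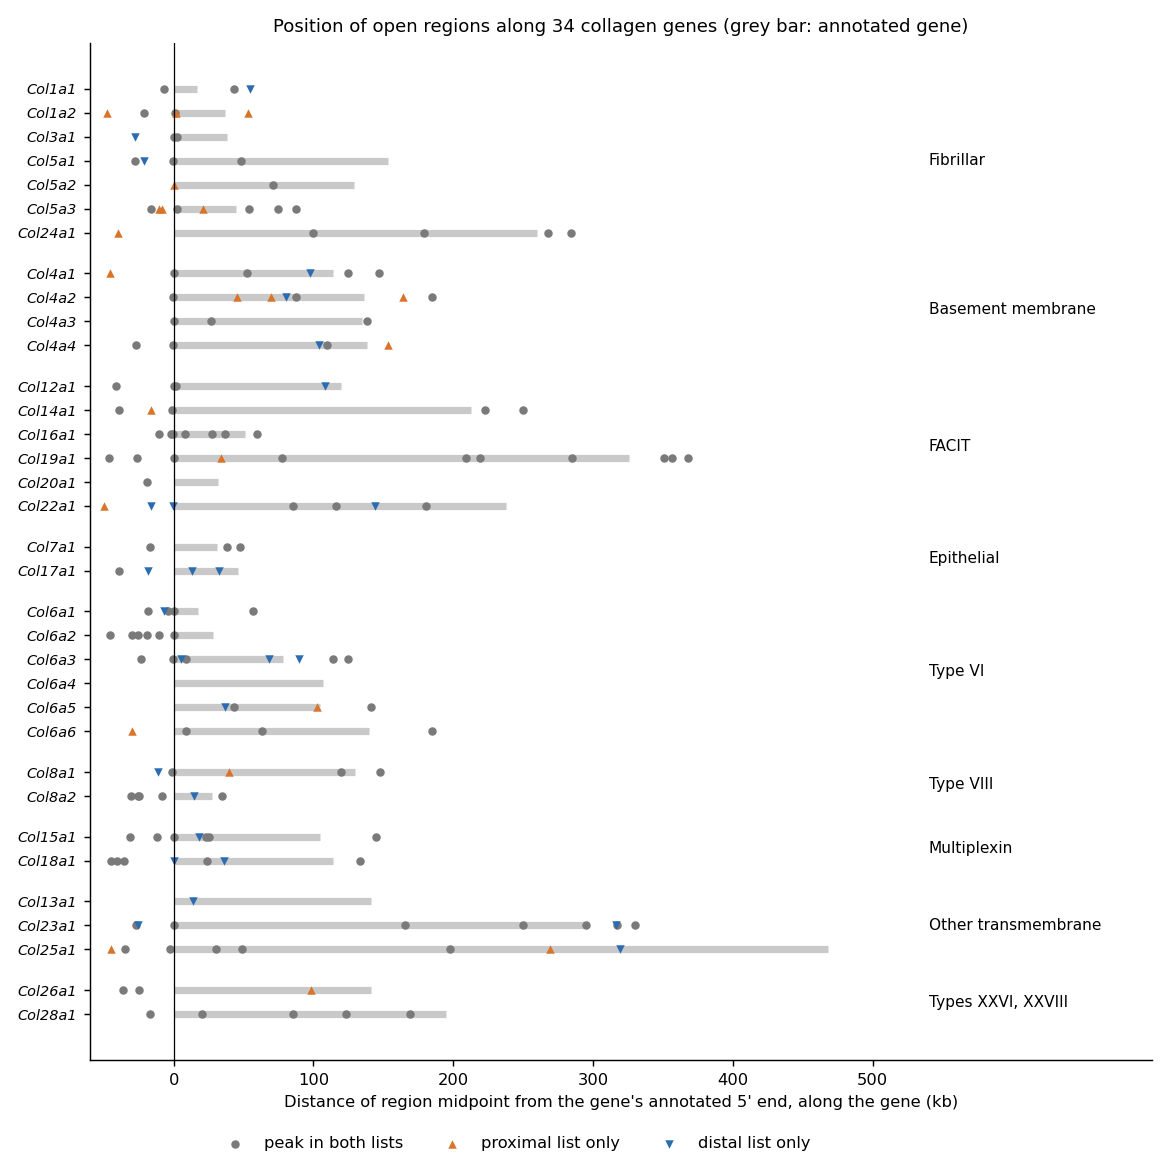
Midpoint of each open region relative to the annotated 5′ end of the gene (x axis, kb, positive into the gene), with 1 row per collagen gene, the gene as a grey bar and symbols for shared (circles), proximal-only (upward triangles) and distal-only (downward triangles) regions. Shared regions stand at the start line for 3 of 7 fibrillar genes, and Col6a4 has no symbol.

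In and within 50 kb of the 34 genes lay 164 distinct regions, of which 117 were shared, 20 proximal-only and 27 distal-only. The single-end share was 28.7% (47 regions, 95% Wilson interval 22.3% to 36.0%), against 27.0% of all regions, so the members as a whole did not stand apart. At least 1 single-end region lay in or within 50 kb of 27 members (79.4%), against 44.3% of all genes. For members of 100 kb or more the count was 19 of 22 (86.4%), against 71.2% of all genes of that length. By position, 5 of 22 promoter regions were single-end (22.7%, interval 10.1% to 43.4%), against 9.39% of all 11824 regions at coding starts. They were those of Col5a2, Col22a1 and Col18a1, that of Col8a2 at a start inside the gene, and the second promoter region of Col1a2. The Col1a2 region lay 253 bp from the nearest distal peak, and that gene had a shared promoter region too. In gene bodies the share was 37.9% (22 of 58) and in flanks away from other starts 31.0% (18 of 58), against 37.2% of all 20564 regions away from coding starts. Flank regions at the start of another gene were shared in 24 of 26 cases.

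**Figure D5:**
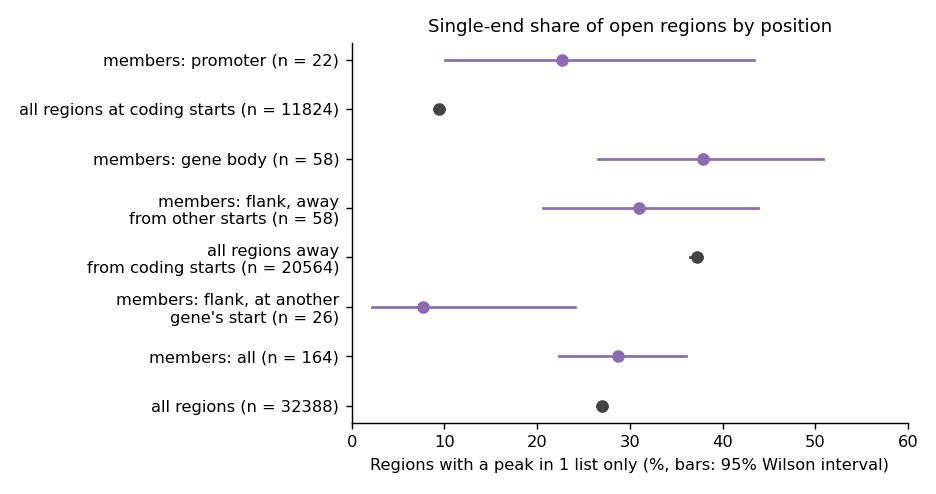
Percent of regions with a peak in 1 list only (x axis, bars: 95% Wilson interval for counting error) for regions at collagen members by position and for all regions. Promoter regions of members (22.7%, n = 22) lie above all regions at coding starts (9.39%), while the gene-body value (37.9%) lies beside that of all regions away from starts (37.2%). The single-end promoter regions include the second one of Col1a2, a gene that also has a shared promoter region.

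The direction of the single-end regions differed by gene. Distal-only regions without proximal-only ones were found at 12 members (Col1a1, Col3a1, Col5a1, Col12a1, Col17a1, Col6a1, Col6a3, Col8a2, Col15a1, Col18a1, Col13a1 and Col23a1), the reverse at 8 (Col1a2, Col5a2, Col5a3, Col24a1, Col14a1, Col19a1, Col6a6 and Col26a1), both kinds at 7 and neither at 7. A region within 50 kb is counted at a member even where it lies at a neighbouring gene. The only single-end region counted for Col1a1 lay at the start of Ppp1r9b, 37665 bp from Col1a1. That of Col6a6 lay in intron 40 of Col6a5 and is counted for both genes. Of the 2 single-end regions of Col23a1, 1 lay at the start of Hnrnpab and the other within Clk4. Proximal-only regions counted for Col4a2, Col4a4 and Col5a3 lay within Rab20, Rhbdd1 and Rdh8, and that of Col4a1 within Col4a2. Over all regions the split was near even, with 4559 proximal-only and 4194 distal-only. The shares of all genes by direction were not computed, so the member counts have no background of the same unit. Basement membrane genes had 4 proximal-only and 3 distal-only regions, FACIT genes 3 and 4, fibrillar genes 8 and 3, type VI genes 1 and 5, and epithelial genes 0 and 3. The 4 basement membrane ones include those within Rab20 and Rhbdd1. Col1a2 and Col5a3 held 3 each of the 8 fibrillar proximal-only regions, and Col17a1 held the 3 epithelial ones. Type VIII genes had 1 and 2, multiplexins 0 and 3, other transmembrane genes 2 and 4, and types XXVI and XXVIII 1 and 0. The 12 single-end regions of the cartilage collagens were all distal-only. Single-end regions of members were narrower than shared ones (median 517 bp, against 768 bp), as they were over all regions (504 bp, against 812 bp). For members the nearest peak of the other list was a median of 24.0 kb away, against 22.2 kb for all single-end regions. It was within 1 kb for 3 of 47 regions (6.38%, at Col1a2 and Col23a1), against 4.07% of all single-end regions. Peak heights are not in the files, so how close a region came to being called at the other end was not measured.

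Sequence at 200-bp region centres away from coding starts was then compared. The AP-1 letters TGAGTCA were present, on either strand, at 37 of 116 member regions (31.9%, interval 24.1% to 40.8%), against 29.4% of all 20564 such regions. Among member regions they were present at 30 of 76 shared (39.5%) and 7 of 40 single-end regions (17.5%), whereas over all regions the shares were 29.3% and 29.6%. The TEAD letters GGAATG were at 26 member regions (22.4%, interval 15.8% to 30.8%), against 13.4%, with 17.1% of shared and 32.5% of single-end member regions, against 12.9% and 14.3% over all regions. RUNX letters were at 18.1%, against 17.9%, and Sox letters at 10.3%, against 12.7%. These shares are given without a test: 8 motifs were searched, and regions of 1 gene share a locus.

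The centres of a shared and a distal-only region in intron 1 of Col6a3, a shared region in intron 37 of Col24a1 and a proximal-only region upstream of Col5a3 show these matches (GRCm38, + strand, capitals as for the promoters). The Col6a3 distal-only centre holds the AP-1 letters at 2 places and the TEAD letters at 2, and the shared centre the AP-1 letters at 2. All centres printed here come from those with the AP-1 letters, which 37 of 116 member regions and 7 of 40 single-end ones hold.
Col6a3 shared (chr1:90834858-90835057): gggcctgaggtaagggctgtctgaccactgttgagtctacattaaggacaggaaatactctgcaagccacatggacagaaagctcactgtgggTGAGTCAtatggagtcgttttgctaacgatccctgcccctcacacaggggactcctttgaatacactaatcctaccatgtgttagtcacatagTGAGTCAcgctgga
Col6a3 distal-only (chr1:90838724-90838923): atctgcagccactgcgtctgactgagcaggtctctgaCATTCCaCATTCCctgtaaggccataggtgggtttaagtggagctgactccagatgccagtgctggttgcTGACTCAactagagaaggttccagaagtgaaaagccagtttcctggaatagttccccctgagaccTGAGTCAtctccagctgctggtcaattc
Col24a1 shared (chr3:145471257-145471456): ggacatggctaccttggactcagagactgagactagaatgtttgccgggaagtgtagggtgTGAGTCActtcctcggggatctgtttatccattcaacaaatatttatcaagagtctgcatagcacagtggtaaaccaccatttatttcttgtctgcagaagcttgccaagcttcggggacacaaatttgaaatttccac
Col5a3 proximal-only (chr9:20822889-20823088): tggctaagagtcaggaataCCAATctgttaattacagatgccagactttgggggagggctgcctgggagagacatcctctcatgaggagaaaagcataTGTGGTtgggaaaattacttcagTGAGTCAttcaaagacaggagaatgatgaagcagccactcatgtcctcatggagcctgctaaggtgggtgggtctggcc

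Genes that modify, export, process and bind collagen chains had promoter peaks at a larger share than the chains themselves. Of 51 genes for hydroxylation, folding, processing, cross-linking, binding and fibril coating, 37 (72.5%) had a promoter peak in both lists, against 54.1% of all genes. Hydroxylases, glycosyltransferases and their partners had one at 14 of 15 genes, all but P4ha3, an alternative prolyl 4-hydroxylase subunit. Folding and export genes had one at 7 of 8, and Creb3l1, a transcription factor of the secretory pathway, had it in the distal list alone. Of the procollagen processing genes, 6 of 10 had one, Pcolce being in the distal and Adamts14 in the proximal list, with Mep1a and Mep1b in neither. Lysyl oxidases had one at 4 of 5 (not Loxl2) and collagen receptors at 6 of 7 (not Itga11). The small leucine-rich proteoglycans that coat fibrils, Dcn, Fmod, Lum, Kera, Ogn and Prelp, had none in either list (0 of 6). The genes with the highest number of single-end regions within 50 kb were taken from each list. They were Colgalt1, Adamts14, Itga2, Ddr2 and Dcn with 3 each, Mia3 and Creb3l2 with 2 each, and Lox, Loxl1 and Loxl2 with 1 each.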

How the data were processed

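The peak lists deposited by the authors were used, 1 per femur end. Each holds positions alone (chromosome, start and end), which serve here as the measured unit, without signal or score. Alignment by the authors to mm10 used Bowtie2 (2.2.8), and MACS2 (2.1.1 in the submitters' processing notes) called peaks after duplicate removal. An IDR threshold of 0.05 over the 2 replicates set which peaks were deposited. Such a threshold can leave a region out of 1 list where its signal is only slightly lower. Reads were not analysed here, so the depth of a peak is unknown.

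Starts were read as counted from 0. Peaks were merged where they overlapped by at least 1 bp and placed against the GENCODE mouse release 21 annotation of GRCm38, which has the chromosome sequences of mm10, using Python 3.11.15, NumPy 2.4.6, SciPy 1.17.1 and pyfaidx 0.9.0.4. A promoter region had its edge within 1 kb of a protein-coding transcript's start, and other regions were placed by their midpoint in exon, intron or a 50 kb flank. Body regions exclude promoter regions. All autosomal protein-coding genes were the background. Motifs were searched on both strands in RefSeq promoter windows matched by symbol and in 200 bp at region centres. Overlap and placement steps were tested on simulated data. Wilson intervals (95%) cover counting error only. All 34 members were named. Members, classes, gene lists and motifs were chosen with earlier results of these data known. The pathway lists are from general knowledge, and of each the genes without a promoter peak in both lists were named.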

Additional observations from a re-analysis of the deposited data

How the results depend on the processing

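Of 60 values recomputed under 9 alternative settings for 12 results, 54 stayed within 1.5 times the count, or within the 95% interval of the share or density. The promoter counts were among these under promoter limits of 2 kb and 200 bp, starts of all transcripts, the gene's 5′ end alone and after narrow peaks (under their list's median width) were left out: members with a promoter peak in both lists numbered between 13 and 19. The other 6 values came from settings that leave out regions by construction. Without those narrow peaks, 13 members had a gene-body region, the density was 0.391 per 100 kb, and 74 regions remained in or within 50 kb, 20 of them single-end. With a flank of 10 kb, there were 95 regions and 29 single-end ones. The single-end share ranged from 26.4% to 32.6%. No paired analysis was possible because each femur end has 1 list that combines its replicates, so a replicate could not be left out either. The lists hold no peak heights or depth, and absence from a list does not show closed chromatin.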

Other observations

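The region of 4579 bp upstream of Col19a1 (chr1:24611571-24616149) was the second widest of all merged regions, the widest having 5746 bp. It overlapped 7 annotated unprocessed pseudogenes between 24611535 and 24616197 on chromosome 1. Of its 32-mers, 98.8% were also found in the mitochondrial genome. Of all merged regions, 3 had at least 50% of their 32-mers in the mitochondrial genome, and it was the only one of the member regions. Reads from mitochondrial DNA and from this locus cannot be told apart by such sequence. Without it Col19a1 has 10 regions.

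The RefSeq promoter windows themselves were overlapped by peaks of both lists at 14 of 27 members (51.9%) and 51.3% of all 15537 windows. The window of Col8a1 was not overlapped by a peak of either list, although that gene has a region within 1 kb of its start.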
